A study of Mus musculus with 72 samples.

Results

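The mitochondrial respiratory chain and the ATP synthase turn the energy of NADH and succinate into ATP. Complex I (NDUF genes) and complex II (SDH genes) feed electrons to ubiquinone, complex III (UQCR genes and CYC1) passes them to cytochrome c, complex IV (COX genes) hands them to oxygen, and the ATP synthase (ATP5 genes) uses the resulting proton gradient. Most subunits are encoded in the nucleus and expressed in every cell, while several complex IV subunits and NDUFA4 have a paralog that is used in muscle, brown fat, testis or under low oxygen. Lymphocytes, tumor cells, adipocytes and red cell precursors differ in how much of this machinery they hold.

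The genes described here are the 93 of 16835 listed genes whose symbol starts with NDUFA, NDUFB, NDUFC, NDUFS, NDUFV, UQCR, COX4 to COX8 or ATP5, or is SDHA, SDHB, SDHC, SDHD or CYC1. By symbol they fall into 38 complex I genes, 7 complex I assembly factors (NDUFAF), 4 complex II genes, 9 complex III genes, 18 complex IV genes and 17 ATP synthase genes. The prefixes also take genes that are not subunits of the complex they are filed under. ATP5SL (mouse Dmac2) is a complex I assembly factor, NDUFA4 is now known as a complex IV subunit, and COX7A2L helps to assemble supercomplexes. The symbols are human style, and COX8BP is taken here as the row of mouse Cox8b, the muscle and brown fat form of COX8.

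The RNA was bulk polyadenylated RNA of BALB/c mice with tumors of CT26, which is a colon carcinoma line of the mouse. The 72 libraries form 24 groups of 3 mice: tumors, spleens and tumor-draining lymph nodes at study day 23, and nodes at day 16, each from 6 arms named PD1, CYTO, PD1/CYTO, TS/CYTO, TS/PD1/CYTO and Isotype. The labels do not spell out CYTO or TS, give no doses and name neither sex nor age. All groups, the Isotype mice included, carried CT26 tumors, so no library is from a tumor-free mouse. The day 23 spleens and nodes came from the same 18 mice, and 14 of these also gave a tumor. Values are log2(TPM + 1) as deposited, where TPM (transcripts per 1e6 transcripts) is a length-corrected share. The lowest value in the table, 0.01, is called the floor. No read number was given, so the depth behind a value is unknown and precision comes from the spread between mice.

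Some libraries stood apart on marker genes. The day 16 node labelled PD1/CYTO 22 had a KRT20 level of 5.69, within the 5.00 to 6.88 of the 18 tumors, and a mean of 5 B cell markers of 0.47, against a node median of 8.14; its most similar library was a tumor. KRT8 did not mark CT26 here, with a median of 0.16 in tumors. The day 16 node PD1 16 had a mean of 5 white fat markers of 9.88, and TS/PD1/CYTO 34 had 9.54 together with a mean of 7 skeletal muscle markers of 11.11, against a median of 0.84 over the 18 day 16 nodes. Treatment, day and fat results that rest on these 3 nodes are given with and without them. The muscle marker mean was also 1.83 to 2.06 in the 3 PD1 tumors, 2.11 in the tumor CYTO 20 and 1.98 and 3.58 in TS/PD1/CYTO 52 and 60, against a median of 0.23 over the 18 tumors. The mean of 5 granulocyte markers was 7.83, 4.96 and 6.86 in the day 23 PD1 nodes 28, 29 and 30, against at most 3.28 in any other day 23 node. The mean of the exocrine pancreas markers ran from the floor to 9.88 in spleens, and its part in the values of spleens was not tested. The RNA integrity numbers had a median of 6.20 in tumors, 8.05 in spleens, 6.65 in day 23 nodes and 7.70 in day 16 nodes. The labels put the nodes in batch 2, the spleens in batch 4, the 14 tumors kept in RNAlater in batch 3 and the 4 fresh-frozen tumors in batch 2. In bulk tissue, fewer cells of a type and less RNA per cell cannot be told apart.

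Upstream sequences are shown for 3 isoform pairs of complex IV, because these pairs carry the largest contrasts between tissues described below. Each is the 250 bases before the RefSeq start of the gene on build GRCm38.p6, with CG dinucleotides in capitals.
Cox8b, chr7:140900447-140900696, minus strand: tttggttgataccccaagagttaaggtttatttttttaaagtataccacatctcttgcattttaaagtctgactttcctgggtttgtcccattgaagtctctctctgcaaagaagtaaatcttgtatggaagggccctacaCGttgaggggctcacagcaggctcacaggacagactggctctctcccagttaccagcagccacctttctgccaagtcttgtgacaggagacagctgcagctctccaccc
Cox8a, chr19:7217617-7217866, minus strand: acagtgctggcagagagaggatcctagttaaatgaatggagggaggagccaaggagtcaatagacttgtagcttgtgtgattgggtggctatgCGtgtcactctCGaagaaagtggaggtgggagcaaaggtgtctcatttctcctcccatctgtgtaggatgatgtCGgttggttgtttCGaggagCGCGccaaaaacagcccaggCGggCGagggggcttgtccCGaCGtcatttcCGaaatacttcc
Cox7a1, chr7:30183921-30184170, plus strand: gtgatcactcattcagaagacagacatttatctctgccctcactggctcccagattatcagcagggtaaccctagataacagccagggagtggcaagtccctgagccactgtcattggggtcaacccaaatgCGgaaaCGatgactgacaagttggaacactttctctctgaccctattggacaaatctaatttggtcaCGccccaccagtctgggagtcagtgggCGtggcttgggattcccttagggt
Cox7a2, chr9:79759854-79760103, minus strand: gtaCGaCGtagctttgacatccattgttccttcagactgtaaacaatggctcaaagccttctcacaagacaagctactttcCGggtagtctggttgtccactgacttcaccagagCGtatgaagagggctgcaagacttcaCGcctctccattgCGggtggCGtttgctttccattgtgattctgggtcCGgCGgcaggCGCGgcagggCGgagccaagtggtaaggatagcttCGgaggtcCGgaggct
Cox6b2, chr7:4753095-4753344, minus strand: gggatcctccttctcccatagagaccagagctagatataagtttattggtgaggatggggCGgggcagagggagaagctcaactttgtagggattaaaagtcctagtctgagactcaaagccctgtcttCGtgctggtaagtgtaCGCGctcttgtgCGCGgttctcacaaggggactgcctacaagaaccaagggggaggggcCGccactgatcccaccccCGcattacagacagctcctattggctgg
Cox6b1, chr7:30626115-30626364, minus strand: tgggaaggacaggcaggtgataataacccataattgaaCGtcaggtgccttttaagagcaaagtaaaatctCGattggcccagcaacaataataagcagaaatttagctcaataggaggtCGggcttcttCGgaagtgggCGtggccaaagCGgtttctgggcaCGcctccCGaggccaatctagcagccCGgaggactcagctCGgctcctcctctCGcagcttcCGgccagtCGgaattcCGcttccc

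In these 3 pairs, the window of the tissue-restricted form held fewer CG dinucleotides than that of its broadly expressed partner. The counts were 1 for Cox8b and 11 for Cox8a, 4 for Cox7a1 and 14 for Cox7a2, 8 for Cox6b2 and 14 for Cox6b1. A further pair, not printed here, went the other way, with 9 for the testis form Cox7b2 and 5 for Cox7b. Over the 74 genes of the chain with a RefSeq window the median was 14.5 (quartiles 10 and 20), close to the median of 14 (quartiles 6 and 21) over 12076 other listed genes. The letters CCGGAAG, which GABP can bind, stood on either strand in 16.2% of the 74 windows, in 10.9% of the other listed genes and in 7.05% of all 27025 windows. The letters CGCATGCG, the NRF1 core, stood in 9.46%, 2.57% and 1.58% of these same sets. The letters AAGATGGCG, searched for YY1, went the other way, with 0%, 0.927% and 0.607%. All were searched on both strands, all hold a CG dinucleotide, and a match is a description of the letters, not of binding. GABP and NRF1 are known to drive nuclear genes of the respiratory chain. Of the 6 windows printed, the Cox6b1 window was the single one with CCGGAAG, and none of the 6 held CGCATGCG.

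All but 2 of the 93 genes were above the floor somewhere. The exceptions, COX7B2 and COX8C, are testis forms of complex IV subunits and were at the floor in all 72 libraries. ATP5B, the catalytic beta subunit of the ATP synthase, had the highest mean level of the 93 in every tissue: 10.19 ± 0.16 in tumors, 9.13 ± 0.11 in spleens, 9.34 ± 0.12 in day 23 nodes and 9.63 ± 0.32 in day 16 nodes (SD, n = 18 each). In tumors it was followed by ATP5G2, a gene for the c ring of the ATP synthase, at 9.57 and by COX6C, a small complex IV subunit, at 9.54. In spleens COX6A1 (8.96) and COX8A (8.89) came next, in day 23 nodes UQCRH (8.93) and COX8A (8.92), and in day 16 nodes COX8A (9.14) and COX4I1 (9.09). In each tissue these runners-up differ by less than their SD between libraries.

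Complexes III, IV and the ATP synthase had the highest median levels in every tissue. Complex IV, ATP synthase and complex III genes stood at 8.53, 8.36 and 8.45 in tumors, 7.79, 7.85 and 7.67 in spleens, 7.78, 7.91 and 7.61 in day 23 nodes and 7.92, 8.06 and 7.95 in day 16 nodes. Complex I genes stood at 7.28, 6.64, 6.74 and 6.93 in the same tissues, and complex II genes stood at 6.71, 6.30, 6.80 and 6.98. The assembly factors of complex I, which do not stay in the finished complex, stood at 3.73, 3.50, 3.74 and 3.97. Summed over the 93 genes, the chain took between 18566 and 28241 TPM in a tumor and between 12726 and 16459 in a spleen. A node held between 12695 and 16959 at day 23 and between 14837 and 24694 at day 16. All 16835 genes of the table summed to between 821758 and 864694 TPM in a tumor but to between 408867 and 596061 in a spleen, so comparisons with spleens depend on how TPM is scaled. Of the listed TPM, the chain made up a median of 2.82% in tumors, 2.75% in spleens, 1.82% in day 23 nodes and 1.96% in day 16 nodes. Near-identical pseudogene copies exist for many of these genes, and how the counting split reads among them is not given in the sources used here.

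Whether the tumor, the spleen and the draining node differ in the chain was asked over the 54 day 23 libraries, averaging the 6 arms. Relative to nodes, tumors had higher levels of 67 of 91 tested genes of the chain and lower levels of 15 (limma, Benjamini-Hochberg adjusted p under 0.05). Over all 12761 genes tested, 27.7% were higher and 57.9% lower, so the chain had a larger share of higher genes than the table as a whole. Its median difference was 0.53, against -0.43 for all genes. With quantile normalization these medians were 0.43 and -0.01. By complex, 30 of 38 complex I genes, 4 of 7 assembly factors, 3 of 4 complex II genes, 6 of 9 complex III genes, 11 of 16 complex IV genes and 13 of 17 ATP synthase genes were higher in tumors. With quantile normalization or with the listed TPM rescaled to a common sum, 62 genes stayed higher and 12 stayed lower under all 3 scalings. Within batch 2 alone, where 4 fresh-frozen tumors meet the 18 nodes, 64 were higher and 17 lower. The shares of all genes in that fit are not given here. Those nodes were kept in RNAlater, so tissue and storage cannot be told apart there. The other tumors were in another batch than the nodes. The B cell, T cell and white fat markers were lower in tumors for 5 of 5 genes each, by medians of -8.11, -4.88 and -3.91; their part in the differences was not tested.

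**Figure D1:**
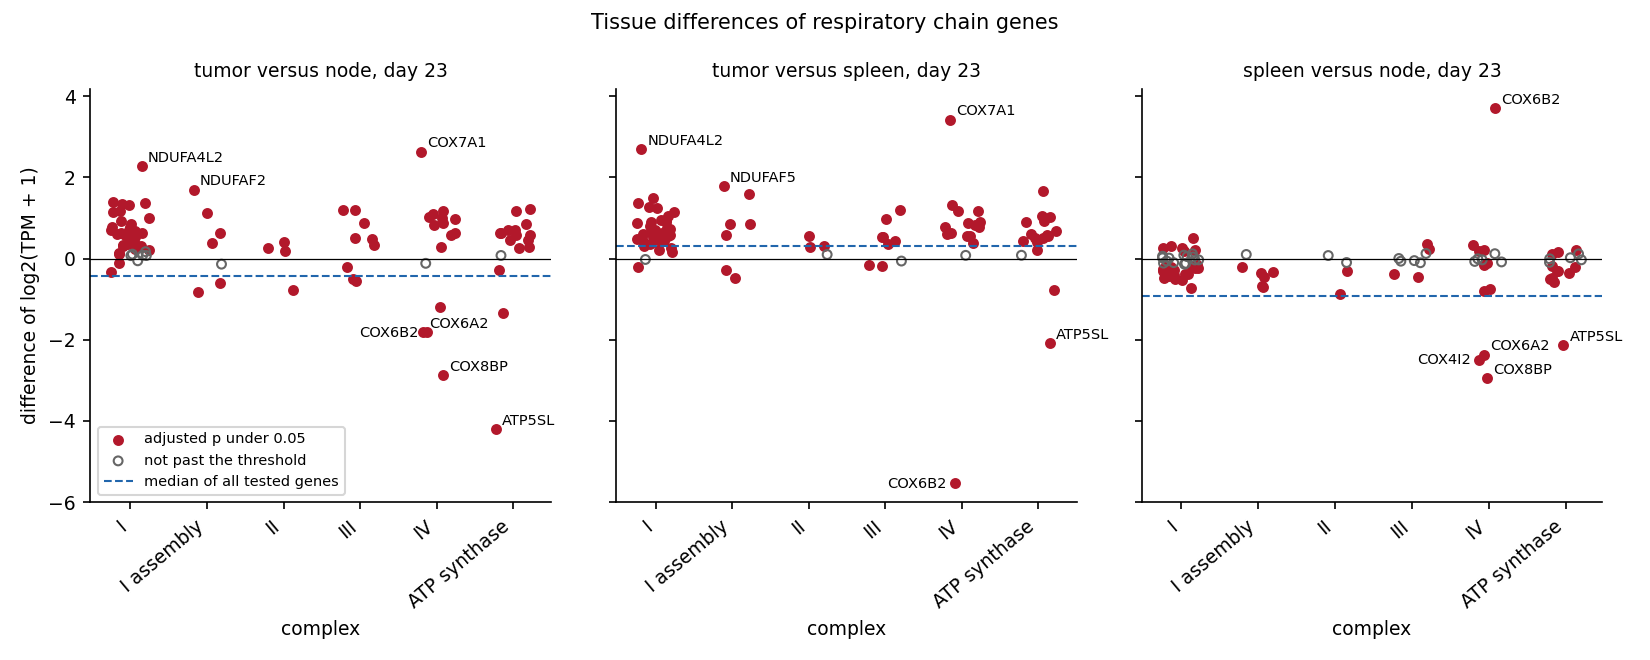
Differences of log2(TPM + 1) for each gene of the chain (points, 91 per panel) by complex, in tumor minus node, tumor minus spleen and spleen minus node at day 23, with filled points past an adjusted p of 0.05. Most points lie above 0 and above the dashed median of all tested genes (-0.43) in tumor minus node, and COX7A1, COX6B2, COX8BP and ATP5SL lie far from the rest.

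Subunits of 1 complex did not all differ in the same direction. In complex III, UQCRB (tumors 8.54, 8.87 and 9.27 as lowest, median and highest, nodes 7.39, 7.64 and 7.99) did not overlap between tissues, with a difference of 1.21 ± 0.05 (SE, adjusted p = 3.47e-23). UQCRQ, another small subunit, differed by 1.21 ± 0.08, UQCR11 by 0.89, UQCR10 by 0.50, UQCRH, the hinge protein, by 0.47 and CYC1, cytochrome c1, by 0.32. The core proteins UQCRC1 and UQCRC2 went the other way, by -0.56 ± 0.07 and -0.50 ± 0.07 (adjusted p = 7.43e-09 and 3.13e-08). UQCRC1 had 5.50, 6.51 and 6.97 in tumors, against 6.81, 7.07 and 7.17 in nodes, so the highest tumors overlapped with the lowest nodes. The Rieske iron-sulfur protein UQCRFS1 differed by -0.21 ± 0.06 (adjusted p = 0.00275), but by -0.04 with quantile normalization. Except for UQCRFS1 and UQCRH, these genes were called in the same direction under all 3 scalings.

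Complex II is also an enzyme of the citric acid cycle, and its subunits too went in both directions. Its catalytic flavoprotein SDHA had 5.27, 6.03 and 6.62 in tumors (lowest, median, highest), against 6.39, 6.80 and 6.92 in nodes, a difference of -0.77 ± 0.10 (adjusted p = 2.22e-09), with the highest tumors overlapping the lowest nodes. The iron-sulfur subunit SDHB and the membrane anchors SDHC and SDHD were higher in tumors, by 0.26 ± 0.06, 0.19 ± 0.08 and 0.40 ± 0.07 (adjusted p = 5.9e-05, 0.0354 and 8.63e-07), though SDHC was not called under all 3 scalings. In the ATP synthase, the alpha subunit ATP5A1 was lower by -0.29 ± 0.06 (adjusted p = 1.71e-05), while the beta subunit ATP5B was higher by 0.85 ± 0.04, the gamma subunit ATP5C1 by 0.58 ± 0.05 and all 3 genes for the c subunit were higher. ATP5G2 differed the most of these 3, by 1.21 ± 0.05, and made up a median of 47.0% of their summed TPM in tumors, against 39.2% in day 23 nodes and 33.9% in spleens. In complex I, NDUFS1, the largest core subunit, differed by 0.08 ± 0.06 (adjusted p = 0.217), NDUFV1, which binds NADH, by 0.11 ± 0.05 (adjusted p = 0.0403) and NDUFS7 by 0.14 ± 0.06 (adjusted p = 0.0251), the last 2 not called under all 3 scalings, while NDUFB9 and NDUFA2, accessory subunits, differed by 1.41 ± 0.08 and 1.38 ± 0.08.

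Exon length moved with these differences; its part in them was not tested. The median summed exon length over the 93 genes was 1675 bases in GENCODE M21. The 45 shorter genes had a median tumor minus node difference of 0.63 and the 46 longer ones 0.35. Among all tested genes the 1114 of at most 1675 bases had a median of 0.06 and the 11415 longer ones -0.47. The rank correlation of length and difference across genes was -0.19 over the 91 and -0.18 over 12529; genes are not independent replicates.

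The largest single differences between tumors and nodes were in isoforms and in genes filed with the chain by name. COX7A1, the muscle form of COX7A, had 3.41, 3.77 and 4.96 in tumors and 0.63, 1.33 and 2.02 in day 23 nodes, with no overlap (difference 2.64 ± 0.15, adjusted p = 7.55e-20). NDUFA4L2, a paralog of NDUFA4 known as a target of hypoxia-inducible factor, had 3.47, 4.28 and 5.31 in tumors and 0.91, 2.05 and 3.67 in day 23 nodes (difference 2.28 ± 0.18, adjusted p = 1.84e-15), with overlap at the ends. NDUFA4 itself differed by 0.08 ± 0.08 (adjusted p = 0.299). NDUFAF2, an assembly factor of complex I, differed by 1.7 ± 0.07 (adjusted p = 1.72e-25). Lower in tumors were ATP5SL (1.09, 2.33 and 2.82 in tumors, 5.76, 6.45 and 6.69 in day 23 nodes, difference -4.21 ± 0.13), ATP5S, a coupling factor of the ATP synthase, by -1.34 ± 0.09, and COX8BP, COX6B2, COX6A2 and COX4I2, by -2.87, -1.82, -1.81 and -1.18. With quantile normalization COX4I2 differed by -0.19, while the other 3 stayed lower under all 3 scalings.

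Other lists of the same pathway were counted beside the chain. Of 12 tested mitochondrially encoded subunits, which the mitochondrial genome itself provides, 0 were higher and 10 lower in tumors than in nodes, with a median of -0.73. Of 16 citric acid cycle genes, 5 were higher and 6 lower (median -0.01). Of 77 mitochondrial ribosomal protein genes, 57 were higher and 11 lower (median 0.40), and of 41 other assembly factors, 15 were higher and 20 lower (median -0.16). Mitochondrial biogenesis factors were lower in 11 of 12 cases (median -0.68). Glycolysis and hypoxia lists were higher in 12 of 16 and 10 of 13 cases, with medians of 1.64 and 1.41, and 13 of 15 proliferation genes were higher (median 1.38). As deposited, the nuclear and the mitochondrially encoded subunits therefore had medians of opposite sign.

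Comparisons with spleens changed with the scaling. As deposited, tumors had higher levels than spleens for 78 of 91 genes and lower levels for 8, beside 53.3% and 24.8% of all genes. Spleens had higher levels than nodes for 15 and lower levels for 44, beside 9.1% and 79.7% of all genes. With quantile normalization the counts became 32 higher and 28 lower for tumors against spleens, and 80 higher and 7 lower for spleens against nodes. With the listed TPM rescaled they became 25 and 39, and 77 and 6. The shares of all genes called are given for the deposited scale only. A total of 27 genes in the first comparison and 36 in the second were called in opposite directions under different scalings. The median of the chain was 0.59, 0.03 and -0.11 for tumors against spleens and -0.12, 0.46 and 0.55 for spleens against nodes under the 3 scalings, while the median of all genes was 0.32, 0.00 and -0.08 in the first and -0.92, -0.07 and -0.42 in the second.

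Under all 3 scalings, 25 genes were higher in tumors than in spleens and 8 were lower. The higher ones included COX7A1 (difference as deposited 3.43 ± 0.15), NDUFA4L2 (2.70 ± 0.18), NDUFAF5 (1.79 ± 0.09), ATP5G2 (1.68 ± 0.05), NDUFAF2 (1.6 ± 0.07) and COX4I2 (1.32 ± 0.13). The lower ones were COX6B2 (-5.54 ± 0.14), ATP5SL (-2.07 ± 0.13), ATP5S (-0.76 ± 0.09), NDUFAF3 (-0.49 ± 0.06), NDUFAF1 (-0.27 ± 0.07), NDUFA4, UQCRC1 and UQCRFS1. Between spleens and nodes, 15 genes were higher in spleens and 5 lower under all 3 scalings. The largest rises were those of COX6B2 (3.72 ± 0.14), NDUFB9 (0.50 ± 0.08), UQCR11 (0.36 ± 0.08), COX6A1 (0.32 ± 0.07) and NDUFA4 (0.30 ± 0.08), and the 5 falls were COX8BP (-2.95 ± 0.34), COX4I2 (-2.50 ± 0.13), COX6A2 (-2.36 ± 0.17), ATP5SL (-2.13 ± 0.13) and SDHA (-0.87 ± 0.10). Each was past an adjusted p of 0.05 in limma.

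The isoform genes differed in the tissue where they were highest. COX6B2, known as the testis form of COX6B, was highest in spleens. It had 4.65, 5.63 and 6.06 in spleens (lowest, median, highest), against 0.87, 1.99 and 2.88 in day 23 nodes and 0.01, 0.01 and 0.41 in tumors, where 15 of 18 libraries were at the floor. The spleens overlapped with no library of the other tissues. As a share of the TPM of COX6B1 and COX6B2 together, it made up a median of 12.1% in spleens (range 7.08 to 15.9%) and 0.78% in day 23 nodes.

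COX8BP was highest in nodes. It was at the floor in all 18 spleens and in 16 of 18 tumors, and had 0.01, 3.33 and 6.05 in day 23 nodes and 0.01, 4.64 and 8.84 in day 16 nodes. Its share of the COX8 transcripts reached 39.9% in the day 16 node TS/PD1/CYTO 34 and had a median of 4.25% over the day 16 nodes. Its residual SD within groups, 1.43, was the largest of the 93, beside a median of 0.21 over the chain. COX7A1 (0.89), COX6A2 (0.78), NDUFA4L2 (0.71) and ATP5SL (0.60) had the next largest residual SDs. Without the 3 nodes that stand apart, the residual SD was 1.15 for COX8BP, 0.53 for COX7A1, 0.50 for COX6A2, 0.53 for NDUFA4L2 and 0.35 for ATP5SL, beside a median of 0.18, and COX4I2 (0.41) and COX6B2 (0.39) came before ATP5SL.

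COX7A1 and NDUFA4L2 had their highest medians in tumors. COX7A1 made up a median of 3.58% of COX7A1 and COX7A2 together in tumors, 0.06% in spleens, 0.80% in day 23 nodes and 1.16% in day 16 nodes, where TS/PD1/CYTO 34 reached 26.5%. NDUFA4L2 made up 4.75% of its pair in tumors, 0.51% in spleens, 0.88% in day 23 nodes and 1.13% in day 16 nodes, where the node labelled PD1/CYTO 22, the one with tumor levels of KRT20, reached 5.19%. COX6A2, the muscle form of COX6A, was highest in nodes, with 3.41, 3.96 and 4.39 on day 23 and 1.05, 3.75 and 7.62 on day 16, against 0.86, 2.06 and 3.16 in tumors and 0.14, 1.75 and 2.46 in spleens. The value of 7.62 was that of TS/PD1/CYTO 34, with its muscle markers, and the lowest, 1.05, that of the fat-rich PD1 16. COX4I2, the low-oxygen form of COX4, took 1.33% of its pair in day 23 nodes and 0.28% in tumors, and was at the floor in 10 of 18 spleens.

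**Figure D2:**
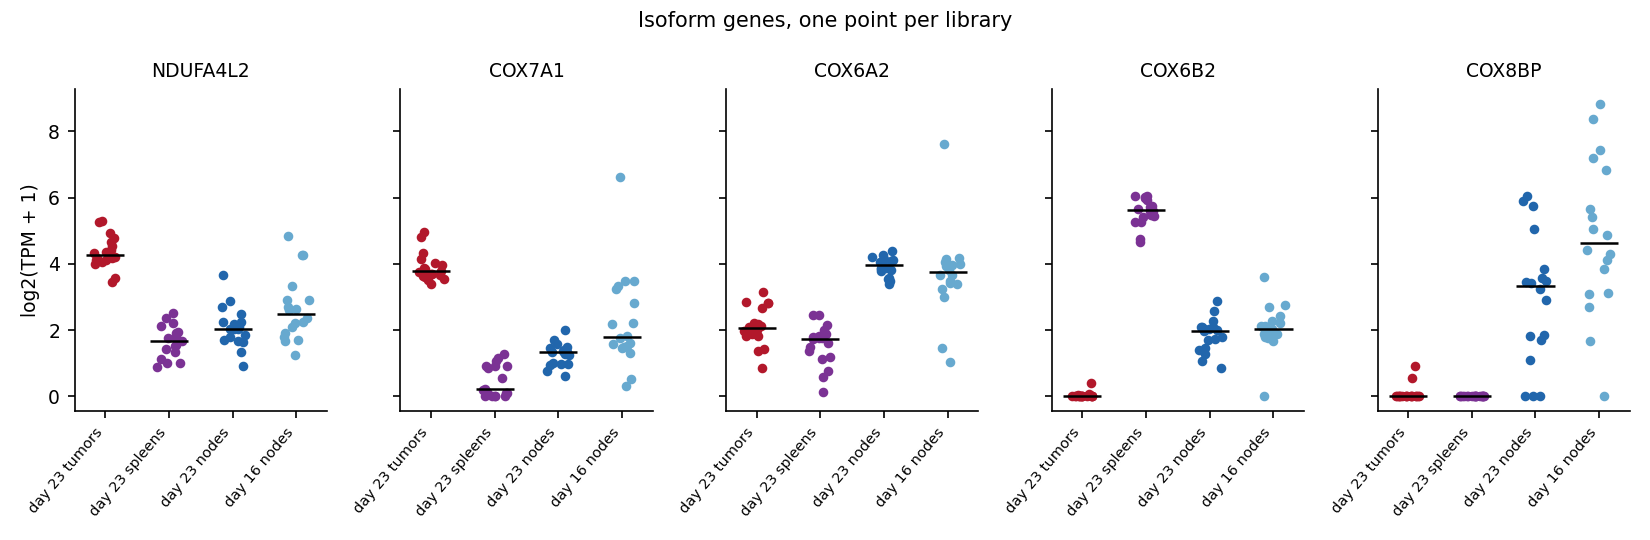
Levels in log2(TPM + 1) of 5 isoform genes in every library (points) by tissue and day, with the median as a bar (18 libraries each). COX6B2 stands at 4.65 to 6.06 in spleens and at most 3.61 elsewhere, NDUFA4L2 and COX7A1 have their highest medians in tumors, and COX8BP spreads over the whole range in nodes.

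Treatment was examined as the effect of each component, averaged over matched arms with and without it. The 3 effects share arms, the Isotype mice among them. No gene of the chain passed the adjusted p of 0.05 in limma for PD1, CYTO or TS, or for any difference between arms, in tumors, spleens, day 23 nodes or day 16 nodes. Few genes of any kind did: 0% in either direction in tumors, spleens and day 16 nodes. In day 23 nodes, 0.0164% of genes were higher and 0% lower for PD1, 0.0246% higher and 0.041% lower for CYTO, 0% higher and 0.00819% lower for TS, and 0.0574% differed between any arms. The smallest adjusted p of a gene of the chain was 0.155, for ATP5SL and PD1 in day 23 nodes. A p that misses the threshold at 3 mice per arm does not show that the arms are alike.

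At an unadjusted p under 0.05, genes of the chain numbered 6, 0 and 4 for PD1, CYTO and TS among the 90 tested in tumors, beside 4.78%, 0.898% and 3.38% of all genes. Among the 90 in spleens they numbered 0, 13 and 1, beside 8.42%, 22.2% and 1.66% of all genes. Among the 91 in nodes they numbered 11, 0 and 0 at day 23, beside 18.1%, 20.8% and 9.43% of all genes, and 3, 0 and 1 at day 16, beside 7.25%, 0.657% and 1.11%. As deposited, the share of the chain was thus below that of all genes for CYTO in spleens and PD1 in day 23 nodes. It was also below where the chain had 0 genes, as for PD1 in spleens and for CYTO and TS in day 23 nodes. These cases are not given under other scalings here. For CYTO in spleens and PD1 in day 23 nodes the share changed with the scaling. For CYTO in spleens, 23 of 90 had such a p with quantile normalization and 29 with the listed TPM rescaled, beside 19.9% and 19.6% of all genes. For PD1 in day 23 nodes, 44 and 16 of 91 did, beside 18% and 19.9%. In tumors, UQCRC1 differed by 0.37 ± 0.13 and SDHC by 0.44 ± 0.17 with PD1 (adjusted p = 0.666 for both). SDHC had 6.78, 6.78 and 6.67 in the PD1 tumors, against 5.71, 6.49 and 6.18 in the Isotype tumors, and those groups did not overlap. The muscle marker means of these tumors were 1.83, 2.06 and 1.99 in the PD1 tumors, against 0.63, 0.16 and 0.15 in the Isotype tumors, and their part in the difference was not tested. SDHC had 5.94, 6.66 and 6.71 in PD1/CYTO tumors, against 6.24, 5.61 and 6.27 in CYTO tumors, and 6.57, 5.80 and 6.76 in TS/PD1/CYTO tumors, against 6.55, 5.66 and 6.04 in TS/CYTO tumors. Both of these pairs overlapped.

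For CYTO in spleens, SDHA and NDUFC1 had the smallest p of the chain. SDHA had 5.71, 5.98 and 6.36 in CYTO and 6.29, 6.34 and 5.87 in PD1/CYTO spleens, against 5.37, 5.70 and 5.44 in Isotype and 5.78, 6.12 and 5.75 in PD1 spleens, a difference of 0.40 ± 0.14 (adjusted p = 0.219). NDUFC1, a small complex I subunit, differed by -0.25 ± 0.09 (adjusted p = 0.219). The chain as a whole had 64 of 90 genes below 0, with a median of -0.09 while the median of all genes was 0.25. With the listed TPM rescaled, 81 of 90 were below 0 and the median was -0.23, with 29 genes at an unadjusted p under 0.05, beside 19.6% of all genes, and a smallest adjusted p of 0.249. None passed the threshold under any scaling.

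In day 23 nodes, 76 of 91 genes were above 0 for PD1, with a median of 0.06 against -0.06 for all genes. ATP5SL had 5.76, 6.37 and 6.39 in PD1 nodes, 6.48, 6.39 and 6.62 in PD1/CYTO nodes and 6.43, 5.96 and 6.18 in TS/PD1/CYTO nodes, against 6.64, 6.38 and 6.60 in Isotype, 6.44, 6.60 and 6.63 in CYTO and 6.69, 6.46 and 6.66 in TS/CYTO nodes (difference -0.28 ± 0.09). The lowest of these, 5.76, was that of PD1 28, the day 23 node with the highest granulocyte marker mean. The part of the granulocyte markers in the PD1 values was not tested. COX5A, a complex IV subunit, differed by 0.13 ± 0.04 (adjusted p = 0.176). With quantile normalization 87 were above 0 and 44 had an unadjusted p under 0.05, beside 18% of all genes, with 0.0684 as the smallest adjusted p. With the white fat marker mean in the model, 55 of 91 genes were above 0 and the median was 0.02. In day 16 nodes, 70 of 91 genes were above 0 for PD1 (median 0.11 against -0.11 for all genes), but without the 3 nodes that stand apart 29 were above 0 and the median was -0.05, so the direction rested on those nodes. With the white fat marker mean in the model for all 18 day 16 nodes, 80 of 91 were above 0, the median was 0.18 and 36 had an unadjusted p under 0.05, beside 32.6% of all genes, with 0.118 as the smallest adjusted p. In the test of the difference between the days, no gene of the chain passed the threshold for PD1, CYTO or TS, where 0.0556% of all genes were higher and 0% lower for PD1 by day and 0% in either direction for CYTO and TS by day. Without the 3 nodes again no gene of the chain passed, beside 0.0402% higher and 0.0161% lower for PD1 by day. At an unadjusted p under 0.05, 8 of 91 genes of the chain then differed for PD1 by day, beside 10.7% of all genes. With all nodes 1 of 91 did, beside 1.53% of all genes.

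**Figure D3:**
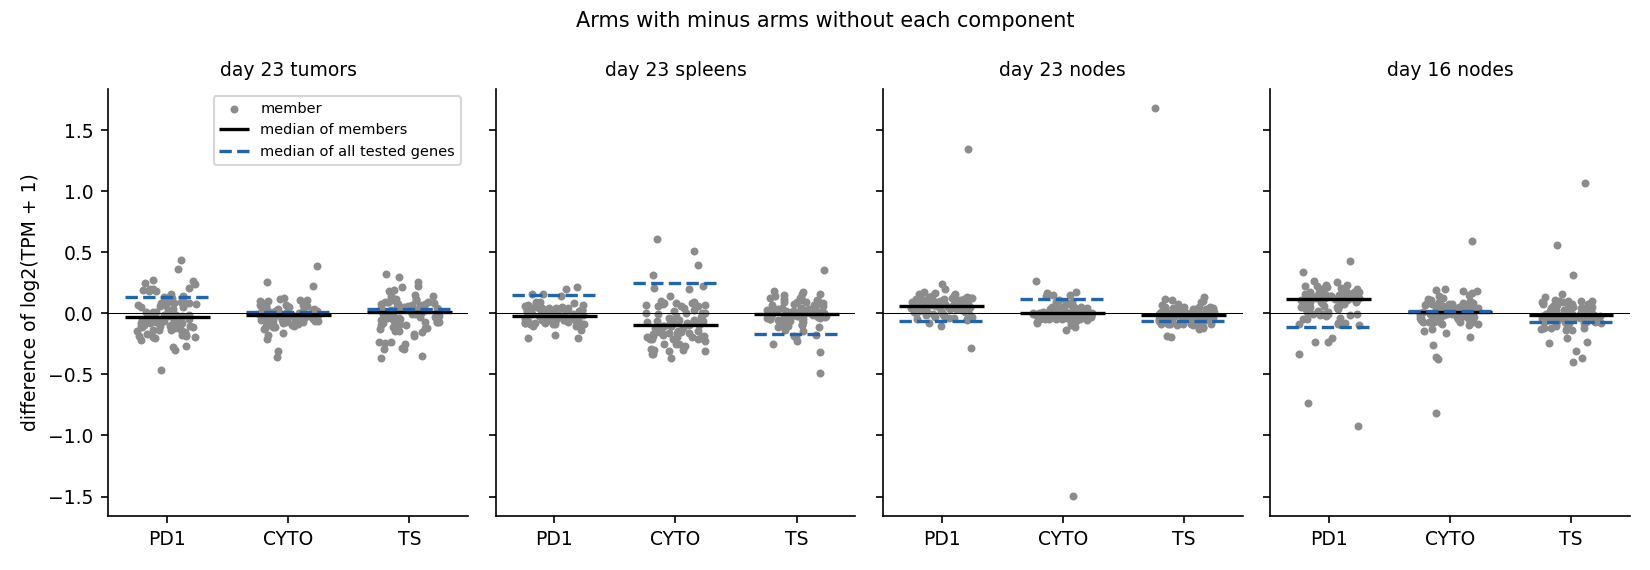
Differences of log2(TPM + 1) attributed to the components PD1, CYTO and TS (arms with minus matched arms without) for each gene of the chain (gray points) in 4 panels by tissue and day, with the median of the chain (solid bar) and of all tested genes (dashed bar). The medians of the chain stay between -0.09 and 0.11, and the points beyond 1 are COX8BP in day 23 nodes and COX6A2 (1.07, TS) in day 16 nodes, which is 0.06 without the 3 nodes that stand apart.

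Between day 23 and day 16, nearly all genes of the chain had negative differences in nodes, and none passed the threshold. The differences of 87 of 91 genes were below 0, with a median of -0.20 against -0.03 for all genes, and 0% of all genes were called in either direction. At an unadjusted p under 0.05, 71 of 91 genes of the chain differed in either direction, whereas 17.7% of all 12596 genes did. NDUFA10, an accessory complex I subunit, had 5.92, 6.28 and 6.47 on day 23, against 6.31, 6.57 and 7.11 on day 16 (difference -0.34 ± 0.07, adjusted p = 0.142). SDHC had 5.88, 6.11 and 6.42 on day 23, against 6.08, 6.39 and 7.13 on day 16 (-0.36 ± 0.08, adjusted p = 0.142). Both genes overlapped between the days. The mice differed between the days.

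Without the 3 day 16 nodes that stand apart, the median difference was smaller but 12 genes passed the threshold, all lower on day 23, among 255 called genes of 12433. They were NDUFA10 (-0.26 ± 0.05, adjusted p = 0.0291), SDHC (-0.25 ± 0.05), NDUFC1, COX5B, UQCRFS1, COX6A1, UQCRC1, NDUFA11, ATP5G3, ATP5O, ATP5A1 and NDUFS8, with differences from -0.26 to -0.13. The median of the chain was then -0.13, against -0.07 for all genes. The white fat marker mean was lower on day 23, with 1.19, 5.02 and 7.28 (lowest, median, highest), against 1.74, 6.17 and 9.88 on day 16. With that mean in the model, 17 of 91 genes of the chain had an unadjusted p under 0.05, beside 11.5% of all genes. None was called, and the median of the chain was -0.07, against -0.04 for all genes.

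The level of white fat genes went with nearly the whole chain across nodes. This slope was added after the data had been seen. It was fitted on the mean of 5 markers (ADIPOQ, PLIN1, CIDEC, LEP and FABP4) over the 36 nodes with group as a term. Of 91 genes, 78 rose with the marker mean and 0 fell, beside 24.3% and 22.8% of all genes, and the median slope was 0.08 per unit of the marker mean, against -0.02 for all genes. By complex these were 36 of 38 complex I genes, 3 of 7 assembly factors, 4 of 4 complex II genes, 9 of 9 complex III genes, 14 of 16 complex IV genes and 12 of 17 ATP synthase genes. Under all 3 scalings 76 rose. Without the 3 nodes that stand apart, 81 rose, and within day 23 nodes alone, 51 rose. The 24.3% and 22.8% hold for all 36 nodes on the deposited scale. The shares of all genes in the other fits are not given here, so those counts cannot be set against them. All 12 mitochondrially encoded subunits tested (median slope 0.18) and 13 of 16 citric acid cycle genes rose too, while 15 of 15 proliferation genes and 43 of 80 cytosolic ribosomal protein genes fell. Markers of other cell types moved along the same axis: 5 of 6 epithelial markers (median slope 0.48), 5 of 5 fibroblast markers (0.20), 3 of 3 endothelial markers (0.12) and 3 of 4 pericyte markers (0.21) rose. KRT8, for instance, was 0.01, 0.49 and 0.01 in the 3 nodes lowest in fat markers and 7.98 in PD1 16, but 0.01 in TS/PD1/CYTO 34. Of 5 macrophage markers 2 fell, of 5 granulocyte markers 1 fell, and 0 of 5 B cell and 0 of 5 T cell markers passed. The part of these cell types in the slopes of the chain was not tested.

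COX8BP followed the fat markers most closely, with a slope of 1.12 ± 0.05 (adjusted p = 1.06e-14). It was at the floor in 4 nodes, whose fat marker means were 1.19, 1.52, 1.74 and 2.74, and reached 8.84 and 8.37 in the nodes with means of 9.54 and 9.88. The 10 nodes highest in fat markers were also the 10 highest in COX8BP. Without the 3 nodes its slope was 1.10, and it was 1.09 in day 23 nodes and 1.14 in day 16 nodes. Of the brown fat markers, UCP1 was at the floor in all 18 day 23 nodes and in 15 of 18 day 16 nodes (highest 1.52), ELOVL3 was at the floor in all nodes, and CIDEA was at the floor in 14 of 18 day 23 nodes and 9 of 18 day 16 nodes and reached 2.12 and 3.36 in the others. COX7A1 had a slope of 0.42 ± 0.10 (adjusted p = 0.00193 in limma), NDUFA4L2 of 0.34 ± 0.08, COX6B2 of 0.24 ± 0.05 and COX4I2 of 0.17 ± 0.04. Without the 3 nodes the slope of COX7A1 was 0.26, in day 23 nodes alone it was 0.15, and that of COX4I2, 0.09, was no longer called. With RNA integrity in the model the calls of NDUFA4L2 (0.26) and COX4I2 (0.12) were lost. That fit also leaves out the fat-rich node TS/PD1/CYTO 34, which has no RNA integrity value, so the covariate and the missing node cannot be told apart.

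**Figure D4:**
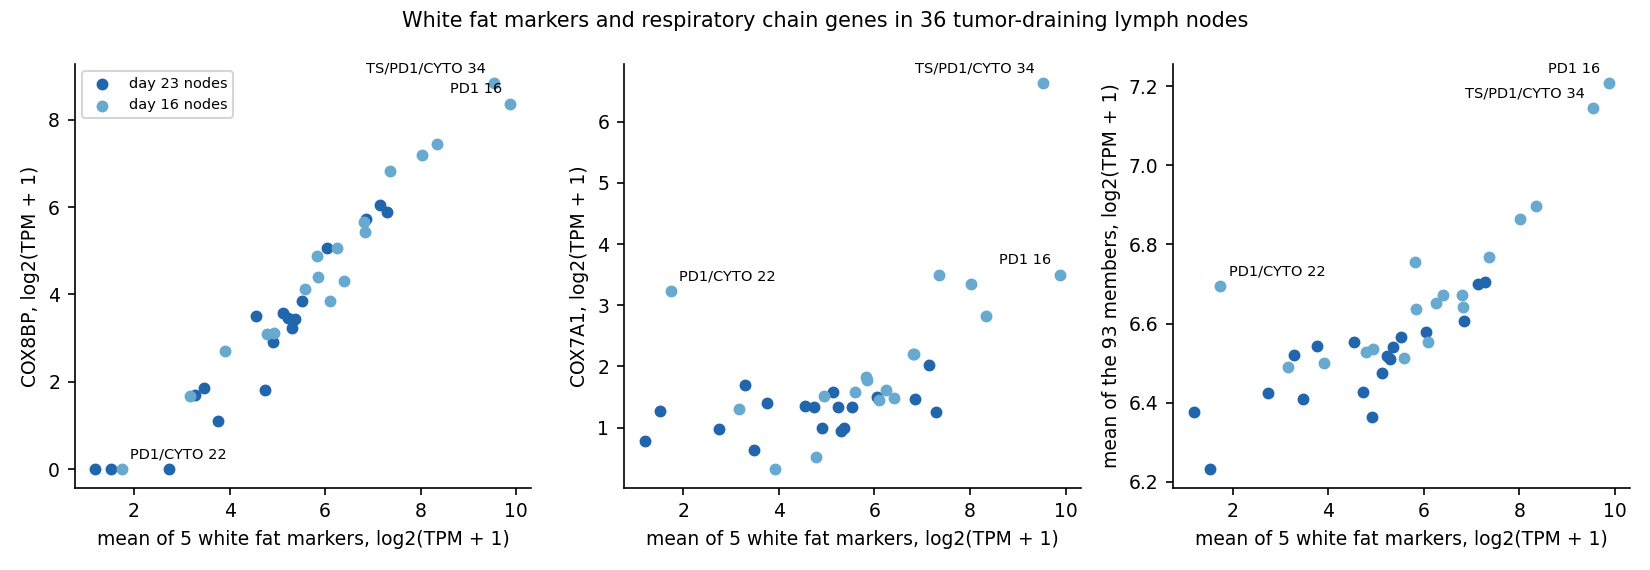
COX8BP, COX7A1 and the mean of the 93 genes in 36 nodes against the mean of 5 white fat markers, all in log2(TPM + 1), with one point per node and the 3 nodes that stand apart named. COX8BP rises along the whole axis up to 8.84, and the mean of the 93 genes is highest, at 7.21 and 7.14, in the 2 nodes richest in fat markers.

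In spleens, COX6B2 rose with the markers of red cell precursors, while COX6A2, COX7A2L and other genes of the chain fell. This slope too was added after the data had been seen, on the mean of 4 erythroid markers (ALAS2, KLF1, EPOR and TFRC), which ran from 6.83 to 8.49 over 18 spleens, with arm as a term. Of 90 genes, 15 rose and 12 fell, beside 11.4% and 51.9% of all genes. With quantile normalization the counts were 37 and 5, and with the listed TPM rescaled 64 and 4. The 11.4% and 51.9% hold for the deposited scale only. The shares of all genes under the other scalings are not given here, so these counts cannot be set against them. Markers of other cells moved along the same axis: 5 of 5 B cell markers (median slope -1.26), 5 of 5 T cell markers (-1.34), 5 of 5 macrophage markers (-0.88), 3 of 3 endothelial markers (-0.99), 3 of 3 tested pericyte markers (-0.77) and 4 of 5 fibroblast markers (-0.75) fell. The B cell marker mean was 7.75 in the spleen lowest in erythroid markers, TS/PD1/CYTO 58, and 5.53 in the highest, TS/PD1/CYTO 59. The part of these cells in the slopes of the chain was not tested. COX6B2 rose by 0.89 ± 0.08 per unit (adjusted p = 1.14e-06), NDUFB9 by 0.46 ± 0.12 and NDUFAB1 by 0.36 ± 0.11. COX6A2 fell by 1.17 ± 0.17 on the log2 scale (adjusted p = 5.36e-05), ATP5SL by 0.71 ± 0.19, COX4I2 by 0.71 ± 0.20, COX7A2L, the supercomplex factor, by 0.68 ± 0.05 (adjusted p = 1.79e-07) and NDUFA4L2 by 0.66 ± 0.25 (adjusted p = 0.0329). The same 15 genes rose under all 3 scalings, while 4 of the 12 fell under all of them: ATP5SL, COX4I2, COX6A2 and COX7A2L. Leaving out the spleen TS/PD1/CYTO 58 left 1 rise and 3 falls, and the slopes were then 0.87 for COX6B2, -0.75 for COX7A2L and -0.90 for COX6A2, each still called. Without PD1/CYTO 40, 26 rose. The call of NDUFA4L2 was also lost without 1 of the spleens Isotype 09 or 10, CYTO 20, PD1 30, or TS/PD1/CYTO 59 or 60. With RNA integrity as a covariate, 28 rose and 13 fell. The shares of all genes in this fit and in those without 1 spleen are not given here either.

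**Figure D5:**
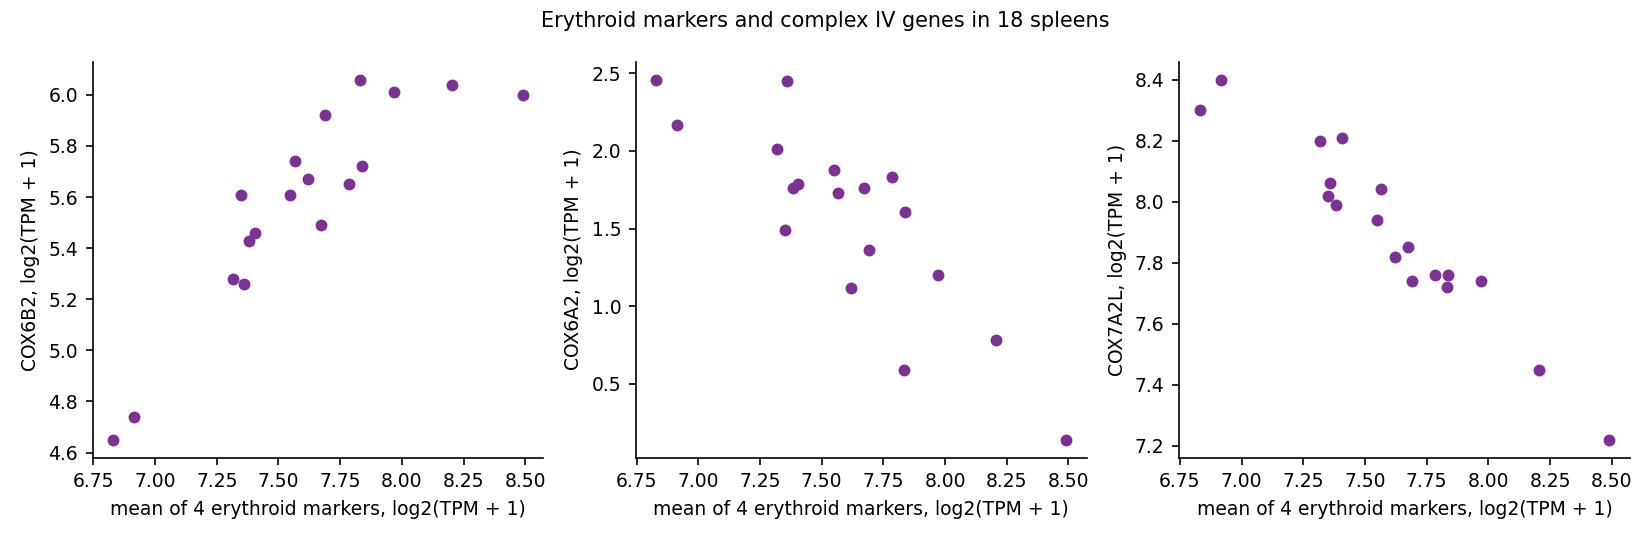
COX6B2, COX6A2 and COX7A2L against the mean of 4 erythroid markers in 18 day 23 spleens, all in log2(TPM + 1), with one point per spleen. Over the marker range of 6.83 to 8.49, COX6B2 (4.65 to 6.06) rises and COX6A2 (0.14 to 2.46) and COX7A2L (7.22 to 8.40) fall.

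Few genes of the chain followed tumor volume, in fits that leave out the arm. In tumors, with log2 volume as the slope and batch as a term, 0 of 90 rose and 2 fell, SDHC by 0.26 ± 0.08 and UQCRFS1 by 0.18 ± 0.05 per doubling (adjusted p = 0.0361 and 0.0377), beside 0.275% and 10.7% of all genes. Without 1 tumor the count of falls ran from 0 to 8. Both genes lost the threshold with arm as a term, with RNA integrity as a covariate and under 3 other settings. In spleens, COX6B2 (0.21 ± 0.04) and NDUFB9 (0.11 ± 0.04) rose and COX6A2 (-0.24 ± 0.08), ATP5SL (-0.18 ± 0.06) and COX7A2L (-0.12 ± 0.04) fell with tumor volume, beside 4.56% and 35.2% of all genes. These 5 are among the genes that followed the erythroid markers in the same directions. None was called with arm as a term, with the listed TPM rescaled, or without 1 of the spleens CYTO 18, PD1/CYTO 38, Isotype 08 or 10, PD1 29 or 30, or TS/PD1/CYTO 58 or 59; without PD1/CYTO 40, 21 rose and 7 fell. In day 23 nodes 0 genes of the chain and 0% of all genes in either direction followed the volume.

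Some genes of the chain also differed between tumors by storage. The 4 fresh-frozen tumors, which are the tumors of batch 2 so that storage and batch cannot be told apart, had higher levels than the 14 RNAlater tumors for 5 of 90 genes and lower levels for 2, beside 0.724% and 14.3% of all genes. NDUFB8, a complex I subunit, had 9.32, 9.07, 9.45 and 8.69 in the fresh-frozen tumors of the Isotype, CYTO, PD1/CYTO and TS/PD1/CYTO arms, against 7.79 to 8.80 in the RNAlater tumors, a difference of 0.78 ± 0.17 (adjusted p = 0.0334). NDUFB2, ATP5L, UQCRH and NDUFAF5 were higher by 0.59, 0.58, 0.53 and 0.52. NDUFA10 and NDUFA12 were lower, by -0.66 and -0.38. Leaving out any 1 of the tumors Isotype 01, 09 or 10, PD1 29 or 30, PD1/CYTO 32 or TS/PD1/CYTO 60 removed all 7 calls.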

How the data were processed

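Polyadenylated RNA of 72 libraries was sequenced as stranded paired reads, per the labels' protocols. Per the submitters' processing notes, bcl2fastq 2.20, STAR and RSEM 1.3.0 were used with build mm10; the annotation and the filter on genes are not given in the sources used here. The values used are log2(TPM + 1), taken from the single matrix that the authors deposited; it holds no read numbers. All 72 columns were matched to samples by name, with 0 columns unused and 0 identical libraries.

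Differences were fitted in R 4.3.3 with limma 3.58.1 (trend and robust empirical Bayes, two-sided) on the deposited log2 values of all genes above the floor of 0.01 in at least 3 libraries, with Benjamini-Hochberg adjustment over all tested genes at 0.05. Each tissue and day was fitted alone, with batch as a term in tumors; tissues and days were compared over group means. The PD1, CYTO and TS effects average matched arms with and without the component. Alternatives were quantile normalization, rescaling of the listed TPM, a pseudocount of 0.1 in place of 1, no filter or a stricter one, RNA integrity as a covariate (1 node without a value left out), leaving out each library, and the mouse as a block between tissues. Libraries of 1 mouse come from the same animal; their residuals correlated across tissues with a median r of -0.01 (spleen and node), 0.03 (tumor and node) and 0.08 (tumor and spleen). By the labels, replicates within a group are separate mice. The number CYTO 12 stands on both a day 16 node and a day 23 tumor, with tumor volumes of 583.2 and 1212 mm3. The labels do not explain this.

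Genes named are a panel of core and isoform subunits, per comparison up to 5 largest rises and 5 falls among called genes (else the 2 of smallest p), the 3 highest per tissue, genes always at the floor and the 5 of largest residual SD. The 12 genes called without 3 nodes, and UQCRB, UQCRQ, UQCR10, UQCR11 and UQCRH between tumors and nodes, were named after their values were seen. So were the slopes on fat and erythroid markers, the fits without 3 nodes, the by-day tests, the exon length split and the motif counts added. The genes and lists were chosen with earlier results of these data known. Positions and exon lengths are from GENCODE M21, upstream sequences from RefSeq (74 of 93 genes matched). 1 of the erythroid markers listed at the start is not reported here and was left out of the marker mean. The scripts were tested on simulated data. Figures were drawn with matplotlib 3.10.9.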

Additional observations from a re-analysis of the deposited data

How the results depend on the processing

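The depth behind each value is unknown, and 3 mice per arm limit the treatment comparisons most. For tumors against spleens, the counts of higher and lower genes were 32 and 28 with quantile normalization and 25 and 39 with rescaled TPM; for spleens against nodes they were 80 and 7, and 77 and 6. With the mouse as a replicate block they were 68 and 14 for tumors against nodes, 75 and 6 for tumors against spleens and 19 and 47 for spleens against nodes. Between day 23 and day 16 nodes, 1 gene was lower with no filter, 12 without the 3 nodes that stand apart, and 0 to 3 without 1 library. For storage, 1 was lower with quantile normalization, 0 were higher and 0 lower with no filter, and 9 and 4 with RNA integrity in the model; without 1 library 0 to 7 were higher and 0 to 5 lower. For tumor volume in tumors, 0 fell with quantile normalization, no filter, RNA integrity, no batch term or arm in the model, and without 1 library 0 to 4 rose and 0 to 8 fell. For volume in spleens, 9 rose and 1 fell with quantile normalization, 0 and 0 with rescaled TPM, no filter or arm, and 5 rose with RNA integrity; without 1 library 0 to 21 rose and 0 to 7 fell. For the fat slope, 2 fell with quantile normalization, 1 fell in day 16 nodes alone, 51 rose in day 23 nodes alone, and without 1 library 0 to 2 fell. For the erythroid slope, 37 rose and 5 fell with quantile normalization, 64 and 4 with rescaled TPM, and 28 rose with RNA integrity; without 1 library 1 to 26 rose and 3 to 14 fell. Without the spleen TS/PD1/CYTO 58, the TS effect in spleens had 1 gene higher and 2 lower and 3 genes differed between any arms; without any other spleen these counts were 0. The cause of these changes was not tested. The shares of all genes called under these alternatives are not given in this section, so its counts describe the chain alone. Of the values under alternatives of the genes named per comparison by rule, 3434 kept their side of the threshold, 173 lost and 6 gained the call. Direction was compared only for named genes that were called in the main fit, and none of these turned. Other genes of the chain did turn with the scaling in the comparisons with spleens, as given above, and 1 did between tumors and nodes.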
